A study of Mus musculus with 7 samples.

Results

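The miR-30 family was followed on 7 custom Agilent microRNA arrays of mouse CD4 T cells that carry DO11.10, a transgenic T cell receptor for an ovalbumin peptide. Members were all probes whose target has the same bases 2 to 8, the seed, as mature mouse miR-30a-5p, and 10 of the 1874 probes on the array met this rule. Naive cells (2 arrays) were CD25- CD44 low and came from DO11.10 Rag2+/+ mice. WT host cells (2 arrays) were CD44 high cells recovered from Balb/c WT mice, and sOVA host cells (3 arrays) were CD44 high cells recovered from sOVA mice, a host line that the labels name without describing it. Both host groups started from DO11 Rag2-/- donor cells, and the hosts were immunized 24 h after transfer with bone marrow-derived dendritic cells that carried Ova peptide and had been treated with LPS beforehand. Host cells were sorted 5 days after transfer. Cells were taken from pooled spleens and lymph nodes of Balb/c animals aged 6 to 8 weeks. Naive and host cells therefore differ in donor Rag2 genotype, sort gate, transfer and activation at once, and these cannot be told apart. The sample titles call the WT hosts OVA immunized and the sOVA hosts sOVA immunized. In vitro activation is named in the title of the series, whereas the protocol is one of transfer and immunization in vivo. The labels do not say whether arrays of a group came from separate pools of mice, so p-values measure only the spread between these arrays, and that spread may be technical.

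MicroRNAs guide Argonaute proteins to messenger RNAs mainly by pairing of the seed, so members of a family can share targets. The miR-30 family is broadly expressed, and its known targets include Prdm1, which encodes the transcriptional repressor Blimp-1 of activated lymphocytes, Becn1 of the autophagy machinery and the Notch ligand Dll4. In the mouse its 5p arms are made from paired hairpin genes: Mir30a lies with Mir30c-2, Mir30b with Mir30d, and Mir30c-1 with Mir30e inside the gene Nfyc, which encodes a subunit of a CCAAT-binding transcription factor. miR-30c-5p is made from both Mir30c-1 and Mir30c-2 and cannot be assigned to either by an array of this kind.

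Of the 10 members, 7 matched a mature sequence of RefSeq (GRCm38.p6), and probes UC1004876 and UC1004884 are named here miR-30b-5p and miR-30d-5p from textbook knowledge. The tenth, UC1004874, has 22 bases, differs from miR-30a-5p at 2 of them and matched no entry. It differs from the target of the miR-30d-5p probe at 1 base, and that target differs from miR-30a-5p at 1 base. The following sequences are shown because they set what the probes can tell apart. They are RefSeq mature sequences, apart from the 19-base target, which was read from its probe, with the seed in capitals.
miR-30a-5p: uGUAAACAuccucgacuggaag
miR-30e-5p: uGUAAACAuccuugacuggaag
miR-30e-5p, 19-base target: uGUAAACAuccuugacugg
miR-30c-5p: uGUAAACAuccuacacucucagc
miR-384-5p: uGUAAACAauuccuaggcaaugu
Counted from 1 at the 5′ end of the microRNA, miR-30e-5p differs from miR-30a-5p by the single substitution C13U. miR-30c-5p differs from miR-30a-5p at 5 positions, all beyond the seed, and miR-384-5p, known as a brain microRNA, at 10. The mature miR-30a-5p lies at chr1:23272274-23272295 on the plus strand. That of Mir30c-2 lies on the same strand at chr1:23291714-23291736. On the minus strand of chromosome 4, miR-30e-5p lies at chr4:120772660-120772681 and the miR-30c-5p of Mir30c-1 at chr4:120769584-120769606, both within Nfyc. miR-384-5p lies at chrX:105344332-105344354 on the minus strand. For miR-30c-5p the array carried probes for 22, 23 and 24 bases, and for miR-30e-5p for 19 and 22 bases.

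Each probe was printed as 7 spots, and a probe counted as detected where at least 50% of its spots were well above background. Between 309 and 467 probes were detected per array, and none of their spots was saturated. Each group had 2 or 3 arrays, and their small number limits the precision. The arrays differed in brightness: the 75th percentile of intensity over the 253 probes detected on all arrays ran from 2729 in sOVA host replicate 3 and 3591 in WT host replicate 2 to 15743 in naive replicate 2. Levels are therefore log2 intensities relative to that percentile of the same array, so that 0 is the percentile itself and negative values lie below it. The 7 spots of a member differed little, with a median standard deviation over arrays between 0.059 and 0.10 log2 units for the 9 members that gave signal. A level here is relative to other probes of the same array, and fewer molecules per cell and fewer cells that carry the microRNA cannot be told apart.

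On all 7 arrays 8 of the 10 members were detected. The 19-base miR-30e-5p target was detected only on the 2 naive arrays, and miR-384-5p on none. The levels by array show the shared direction: in each of the first 7 members plotted, the naive arrays lay above both host groups.

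**Figure D1:**
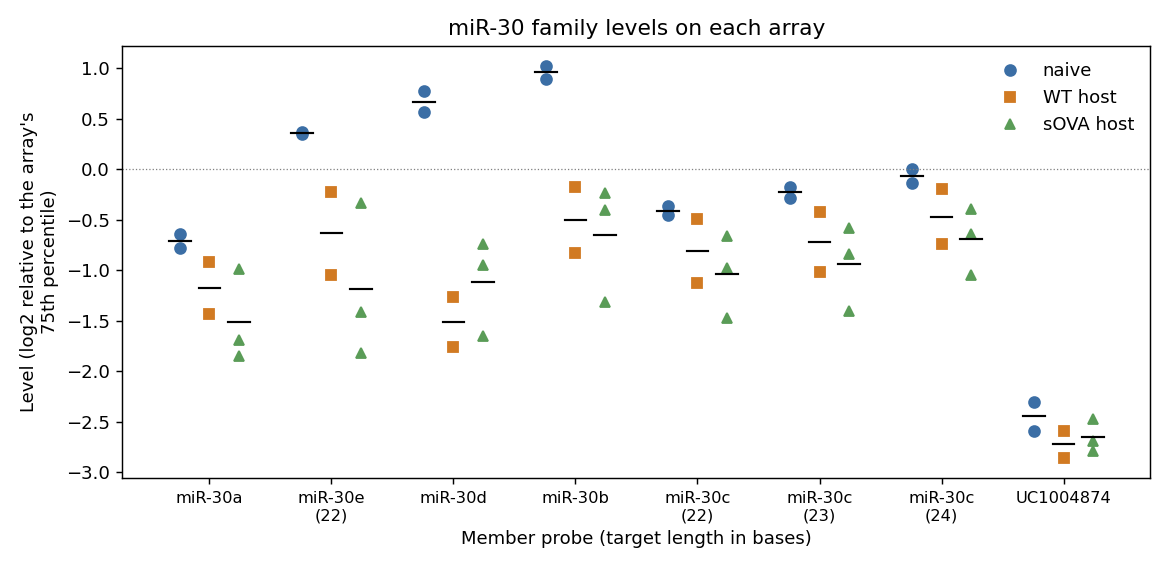
Level (log2 relative to the array's 75th percentile) of the 8 members detected on all arrays, 1 symbol per array and a bar at each group's mean. Naive arrays (2) lie above WT host (2) and sOVA host (3) arrays for every member but UC1004874, whose groups overlap, and the gap is widest for miR-30d-5p.

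The clearest difference among the members detected on all arrays was that of miR-30d-5p, which was lower in both host groups. Its level was 0.78 and 0.56 in naive cells, -1.27 and -1.77 in WT hosts, and -0.75, -0.95 and -1.65 in sOVA hosts. The naive and host arrays did not overlap, and the lowest naive level stood more than 1 log2 unit above the highest host level. It fell by 2.19 ± 0.39 log2 units (SE) in WT hosts, which is 4.55-fold (limma, adjusted p = 0.0116, n = 2 and 2). It fell by 1.78 ± 0.36 in sOVA hosts, or 3.45-fold (limma, adjusted p = 0.0212, n = 3 and 2). Arrays lay in 2 rows of 1 slide, and within the rows the change was -2.05 and -2.33 in WT hosts and -1.62 and -2.22 in sOVA hosts. Each row held only 1 naive and 1 WT host array. Row 2 held the dimmest array of each host group and the brighter naive array, so row and brightness cannot be told apart. The call in WT hosts was lost without naive replicate 1 (adjusted p = 0.134), naive replicate 2 (0.0681) or WT host replicate 2 (0.0876). That in sOVA hosts was lost without naive replicate 1 (0.179) or naive replicate 2 (0.129).

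miR-30b-5p, made from the hairpin gene that neighbours Mir30d, was the member with the next largest change among those detected on all arrays. Its level was 1.03 and 0.90 in naive cells, -0.18 and -0.83 in WT hosts, and -0.41, -0.23 and -1.32 in sOVA hosts, again without overlap between naive and host arrays. In sOVA hosts it fell by 1.61 ± 0.41 log2 units (SE), or 3.06-fold (limma, adjusted p = 0.034). In WT hosts the change of -1.47 ± 0.45 did not pass (limma, adjusted p = 0.0666). The difference between these comparisons was -0.14 log2 units, with a 95% interval of -1.14 to 0.85, so a call in 1 host and not in the other does not separate them. With the slide row as a block the change in WT hosts passed too (adjusted p = 0.0207), as it did without sOVA host replicate 3 (0.0109). The call in sOVA hosts was lost when any single array other than sOVA host replicate 3 was left out, with adjusted p between 0.0503 and 0.254.

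The 22-base and 19-base probes for miR-30e-5p are given separately. The 22-base target had levels of 0.35 and 0.37 in naive cells, -0.22 and -1.05 in WT hosts, and -0.34, -1.41 and -1.82 in sOVA hosts. Host arrays were lower without overlap but spread over more than 1 log2 unit, and the changes of -0.99 ± 0.55 in WT hosts (limma, adjusted p = 0.228) and -1.55 ± 0.50 in sOVA hosts (limma, adjusted p = 0.0659) did not pass. The latter passed under scaling to the 75th percentile over all probes (-2.37, adjusted p = 0.0398), with the slide row as a block (-1.65, adjusted p = 0.0272) and without sOVA host replicate 1 (adjusted p = 0.029).
The 19-base target had intensities of 1437 and 1582 in naive cells, against 29.3 and 10.9 in WT hosts and 82.0, 63.2 and 15.1 in sOVA hosts. It was well above background on both naive arrays and on none of the 5 host arrays. It was thus at least 11.6-fold lower in WT hosts and at least 7.14-fold lower in sOVA hosts, bounds that were not themselves tested. For these bounds each host array was given its dimmest signal that still passed as well above background, or the probe's own signal where that was higher. The probe could be tested only because the naive arrays detected it, so a lower host value was fixed by the filter. Its fitted changes were -5.15 in WT hosts (limma, adjusted p = 0.000664) and -4.11 in sOVA hosts (limma, adjusted p = 0.000737). They were the lowest of all 401 tested probes in each comparison but rest, like their p-values, on host signal below background.
Set against the 22-base probe of the same array, the 19-base probe gave 9.48% and 7.80% of the intensity in naive cells. In hosts it gave 0.368% and 0.627% in WT and 1.05%, 1.51% and 1.95% in sOVA, all from signal below background. Neither the difference between the probes' changes nor whether the 19-base probe reads a shortened miR-30e-5p was tested.

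**Figure D2:**
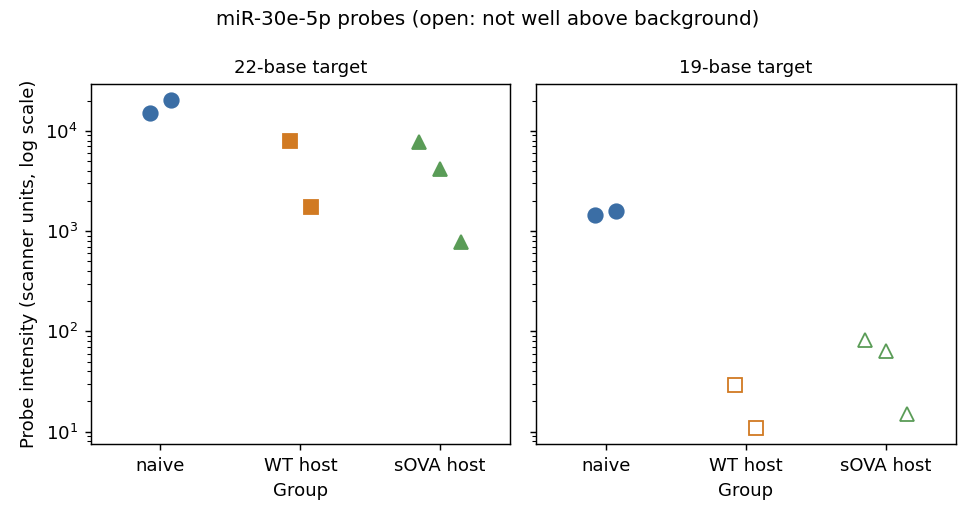
Intensity (scanner units, log axis, not scaled between arrays) of the probes for the 22-base and 19-base targets of miR-30e-5p, 1 symbol per array, open where the probe was not well above background. The 19-base target stands at 1437 and 1582 in naive cells and at 82.0 or below in all host arrays.

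miR-30a-5p, which differs from miR-30e-5p by 1 base, had levels of -0.64 and -0.78 in naive cells, -0.92 and -1.43 in WT hosts, and -0.99, -1.69 and -1.85 in sOVA hosts. Naive arrays lay above the host arrays, by a small margin. Neither its change in WT hosts (-0.46 ± 0.38, limma, adjusted p = 0.399) nor that in sOVA hosts (-0.80 ± 0.35, limma, adjusted p = 0.136) passed. The 95% intervals were -1.40 to 0.47 and -1.65 to 0.05.

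The 3 probes for miR-30c-5p read nearly the same pattern. The brightest, for 24 bases, had levels of 0.00 and -0.14 in naive cells, -0.20 and -0.74 in WT hosts, and -0.64, -0.39 and -1.05 in sOVA hosts. Its changes were -0.40 ± 0.35 in WT hosts (limma, adjusted p = 0.416) and -0.63 ± 0.32 in sOVA hosts (limma, adjusted p = 0.184). The 22-base and 23-base probes gave -0.40 and -0.49 in WT hosts and -0.63 and -0.71 in sOVA hosts, with none called. The 22-base probe stood at 74.7% to 82.9% of the 24-base probe's intensity over the arrays, with naive arrays inside the host range. The 23-base probe stood at 88.8% and 90.2% in naive cells, just above the 78.5% to 87.6% of the host arrays.

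UC1004874 was the member with the smallest changes. Its levels were -2.31 and -2.59 in naive cells, -2.59 and -2.86 in WT hosts, and -2.47, -2.69 and -2.79 in sOVA hosts, so that naive and host arrays overlapped. Its changes were -0.28 (limma, adjusted p = 0.481) and -0.20 (limma, adjusted p = 0.567). miR-384-5p was not well above background on any array and was not tested.

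Over the family, 9 of 10 members were tested, and the 19-base miR-30e-5p target was tested only through the naive arrays. Members are probes, with 3 for miR-30c-5p and 2 for miR-30e-5p, so the 9 are not 9 separate microRNAs. With nested probes merged, 6 members were left, with 1 called lower in WT hosts and 2 in sOVA hosts. Of all 342 merged probes, 20 and 19 were called lower. In WT hosts 2 of 9 were called lower (miR-30d-5p and the 19-base miR-30e-5p target) and 0 higher. Over all 401 tested probes, 26 (6.48%) were called lower and 55 (13.7%) higher. In sOVA hosts 3 of 9 were called lower (the same 2 and miR-30b-5p) and 0 higher, against 25 (6.23%) lower and 68 (17%) higher of all tested probes. These counts over all probes moved with single arrays. In WT hosts they were 3 lower and 14 higher without naive replicate 1, 4 and 22 without naive replicate 2, 5 and 35 without WT host replicate 1, 4 and 24 without WT host replicate 2, and 72 and 112 without sOVA host replicate 3. In sOVA hosts they were 3 and 12 without naive replicate 1, 3 and 15 without naive replicate 2, 27 and 39 without sOVA host replicate 1, 10 and 53 without sOVA host replicate 2, and 53 and 106 without sOVA host replicate 3. All 9 fitted changes were negative in both comparisons, compared with 171 and 191 of the 401 probes. With nested probes merged, all 6 were negative in both. The naive arrays lay above the host arrays without overlap for 8 of 9 members in each comparison, against 32.2% of all tested probes in WT hosts and 30.4% in sOVA hosts. These 8 include the 19-base miR-30e-5p target, whose lower host value was fixed by the filter. They also include the 3 miR-30c-5p probes, with small margins in WT hosts (24-base probe: lowest naive level -0.14, highest WT host level -0.20). The median change of the tested members was -0.49 in WT hosts and -0.80 in sOVA hosts, beside 0.24 and 0.11 over all tested probes. The median in WT hosts was -0.21 without WT host replicate 2 and -0.79 without WT host replicate 1. Over the 8 members detected on all arrays the medians were -0.48 and -0.76, beside 0.36 and 0.21 over the 253 probes so detected. Both comparisons use the same 2 naive arrays and are not independent of each other. The plot of changes shows how unevenly the members contributed.

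**Figure D3:**
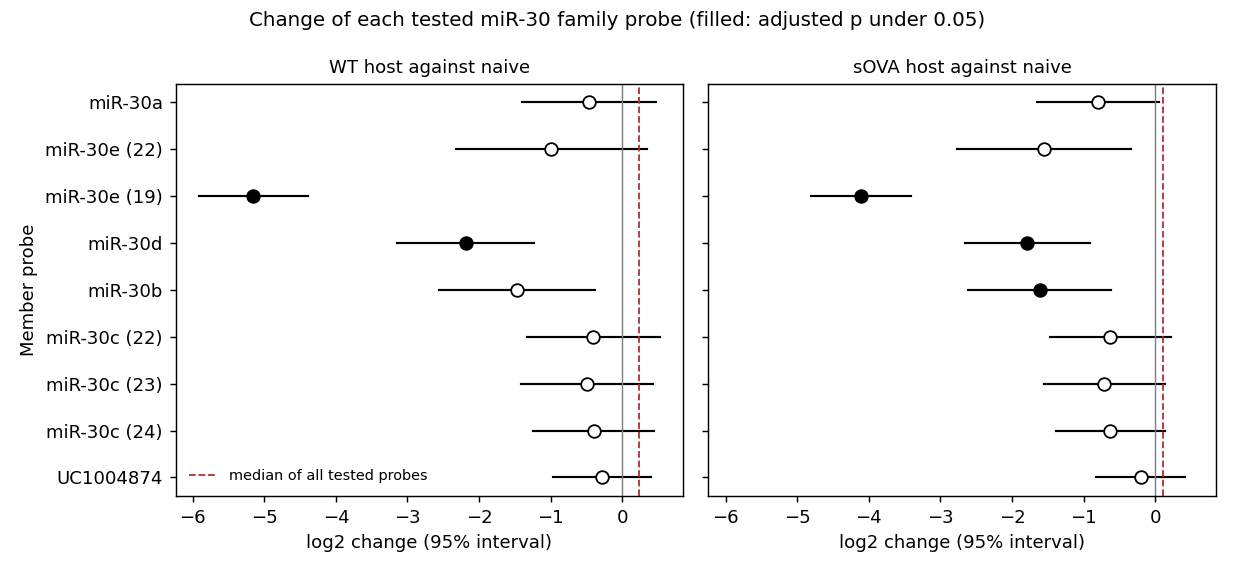
log2 change (point) with its 95% interval (line) for the 9 tested members in WT hosts and sOVA hosts against naive cells, filled where the limma adjusted p was under 0.05. All points lie left of 0 and of the dashed median of all 401 tested probes (0.24 and 0.11), from -5.15 in WT hosts for the 19-base miR-30e-5p target to -0.20 in sOVA hosts for UC1004874.

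Between the hosts no member was called. Nor was any of the 401 probes (limma), while 47 had an unadjusted p under 0.05, the 19-base miR-30e-5p target among them (1.05 higher in sOVA hosts, adjusted p = 0.326, both groups below background). Without sOVA host replicate 3, 29 probes were called lower and 48 higher in sOVA than in WT hosts, and without both dimmest arrays 26 and 28. With the replicate number as a block, 12 were called lower and 24 higher. The differences of sOVA from WT hosts for the members detected on all arrays ran from -0.56 for the 22-base miR-30e-5p to 0.40 for miR-30d-5p. For miR-30d-5p the 95% interval was -0.47 to 1.27, and for miR-30a-5p, at -0.34, it was -1.19 to 0.52. By group means, the order was naive, then WT host, then sOVA host for miR-30a-5p, miR-30b-5p, the 22-base miR-30e-5p and all 3 miR-30c-5p probes. For miR-30d-5p and UC1004874 the sOVA mean was above the WT mean. The arrays of the host groups overlapped for each of these 8 members.

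The opposite arms of the hairpins, which share their transcripts with the 5p members, could be matched to few probes. Probes for 4 of the 3p arms were identified, and 2 passed the filter for testing. The RefSeq sequences held no entry for miR-30b-3p or miR-30d-3p, so probes for these arms could not be looked for. miR-30e-3p had changes of -0.29 (limma, adjusted p = 0.503) in WT hosts and -0.50 (limma, adjusted p = 0.222) in sOVA hosts. miR-30a-3p had changes of -0.08 (adjusted p = 0.831) and -0.36 (adjusted p = 0.311) by the same fit. It was well above background on both naive arrays but on only 1 of 2 WT host and 1 of 3 sOVA host arrays. Its probe was thus tested only through the naive arrays, and its host levels rest partly on signal below background. The difference between the arms of a hairpin was not tested.

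Members varied together to different degrees over the 7 arrays. The deviations of miR-30a-5p and the 22-base miR-30e-5p correlated at r = 0.99, those of miR-30b-5p and miR-30d-5p at 0.95, and those of the 3 miR-30c-5p probes between 0.995 and 0.997. Other pairs of the 8 members detected on all arrays lay between 0.68 and 0.94. These 7 points share the scaling of each array and the contrast of naive with host cells, so the values are a description. Across the family the mean level of the 7 named probes detected on all arrays, centred on 0, was 0.79 and 0.68 in naive cells, 0.12 and -0.49 in WT hosts, and -0.05, -0.19 and -0.86 in sOVA hosts. The lowest array of each host group was also its dimmest, namely replicate 2 of the WT hosts and replicate 3 of the sOVA hosts. Without both of these arrays miR-30d-5p fell by 1.94 in WT hosts (limma, adjusted p = 0.014) and by 1.54 in sOVA hosts (adjusted p = 0.0114), and the median change of the tested members was -0.21 and -0.65.

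Of 245 other probes detected on all arrays, those most like this mean profile over the 7 arrays by Pearson's r were 2 probes for let-7g-5p (0.994 and 0.978), let-7c-5p (0.984), UC1005581, which matched no entry (0.983), and miR-29a-3p (0.980). let-7, miR-26 and miR-29 are microRNA families that are abundant in many resting cells. The 18 tested let-7 and miR-98 probes had a median change of -0.53 in WT hosts, with 0 called lower and 1 higher. In sOVA hosts their median was -0.79, with 1 called lower and 0 higher. The 4 tested miR-26 probes had medians of -2.02 and -1.55, with 1 called lower in each. miR-26b-5p was that probe in both comparisons, at -1.50 (limma, adjusted p = 0.015) and -2.15 (adjusted p = 0.00423). The 6 tested miR-29 probes had medians of -2.81 and -1.68, with 1 called lower in WT hosts and 0 in sOVA hosts. The called probe, for miR-29c-3p, was detected on both naive arrays but in neither WT host array, and was tested only through the naive arrays. Its change of -3.18 (limma, adjusted p = 0.0208) thus rests on undetected WT host signal, and its bound was at least 2.62-fold lower. Another miR-29c-3p probe went undetected on a WT host array, and each miR-29c-3p probe on an sOVA host array. Both medians therefore rest partly on undetected host signal. No difference between miR-30 and these families was tested.

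The markers of T cell state moved as follows beside the family. miR-21a-5p, induced on activation, rose by 3.37 log2 units in WT hosts (limma, adjusted p = 0.00138) and by 2.84 in sOVA hosts (adjusted p = 0.00187). miR-155-5p and miR-146a-5p rose in sOVA hosts, by 4.05 and 4.08 (limma, adjusted p = 0.0211 and 0.0158), and differed by 2.63 and 2.46 in WT hosts without passing (adjusted p = 0.0843 for both). miR-181a-5p, a regulator of T cell receptor signalling that is highest in immature T cells, fell by 3.34 in WT hosts (adjusted p = 0.0118), and its change of -1.64 in sOVA hosts did not pass (adjusted p = 0.0708). The other matched marker of naive CD4 T cells, miR-342-3p, had changes of 0.20 in WT hosts (limma, adjusted p = 0.758) and 0.16 in sOVA hosts (adjusted p = 0.778), with overlapping groups. A further naive marker, miR-150-5p, had no entry among the RefSeq sequences used to name probes, so it was not examined. The same held for miR-486a-5p (erythroid), miR-122-5p (liver) and miR-124-3p (neural). It also held for miR-143-3p, miR-145a-5p, miR-1a-3p and miR-133a-3p (stromal or muscle). Of markers of other cells, both probes for the myeloid miR-223-3p were lower in hosts, with changes of -2.83 and -3.04 log2 units in WT hosts (limma, adjusted p = 0.0242 and 0.015) and of -2.47 and -2.68 in sOVA hosts (adjusted p = 0.0262 and 0.0212). They were well above background on both naive arrays but on only 1 of 2 WT host arrays, and on 1 and 2 of 3 sOVA host arrays, so they were tested only through the naive arrays and their host levels rest partly on signal below background. The 2 tested erythroid probes, of 3, were not called, with median changes of -1.17 and -0.02. Of 10 epithelial probes 6 were tested, with 2 called lower in WT hosts and 1 in sOVA hosts, and 0 higher in either. The called probes were for miR-200a-3p in both comparisons and for miR-200b-3p in WT hosts only. Both were well above background on both naive arrays but on no host array, so they were tested only through the naive arrays. Their host levels rest on signal below background. Both probes for miR-200c-3p had positive changes in sOVA hosts (0.15 and 0.19) that did not pass. miR-205-5p, an epithelial microRNA that was not tested, was well above background on 2 of the 3 sOVA host arrays and on no other array, at least 5.54-fold above naive cells. Neither of the 2 stromal probes tested was called, and no endothelial or neural probe could be tested. The part of these other cells in the members' changes was not tested.

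The array also carried control spots for miR-30b-5p and the 23-base miR-30c-5p in which 1 base of the probe was changed, 1 spot per position. They show how strictly a probe of this family reads its target. A mismatch at base 1 kept a median of 94.7% of the full-match intensity for miR-30b-5p and 84.2% for miR-30c-5p. Within the seed less signal remained: base 2 kept 29.1% and 17.5%, base 3 25.4% and 17.6%, base 4 7.72% and 5.60%, and base 5 2.67% and 2.75%. At bases 7 and 8, and at bases 10, 11, 13 and 14, no spot was well above background on any of the 7 arrays for either probe. Base 13 is where miR-30a-5p and miR-30e-5p differ, but their own probes had no such controls, and the loss depends on which bases meet. The last base was tolerant again, with 78.8% at base 22 of miR-30b-5p and 75.2% at base 23 of miR-30c-5p. The mismatch spots well above background on all arrays followed the full-match probe of miR-30b-5p, with a median change over 5 positions of -1.42 in WT hosts and -1.54 in sOVA hosts.

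One control spot of miR-30c-5p departed from this. With base 22 mismatched it kept 72.2% and 67.0% of the full-match intensity in naive cells, but 19% and 15.1% in WT hosts and 32.5%, 25.4% and 16.0% in sOVA hosts. Naive and host arrays were more than 34 percentage points apart, while the full-match probe had changes of -0.49 log2 units in WT hosts and -0.71 in sOVA hosts. At base 21 the naive arrays kept 24.2% and 18.7%, above the 11.05% to 18.0% of the host arrays. At base 23 the groups overlapped, with 72.1% to 78.3% on all arrays. Of the 8 positions of miR-30c-5p that were well above background on all arrays, naive arrays lay above all host arrays at these 2, below them at 3 (bases 1, 2 and 3, by small margins) and overlapped them at 3. For miR-30b-5p the last base was the only 1 of 5 positions at which naive arrays lay above all hosts, at 80.4% and 85.4% against 75.4% to 80.0%. The base-22 spot was singled out after its values were seen, it is 1 spot per array, and which RNA it binds in naive cells was not tested.

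**Figure D4:**
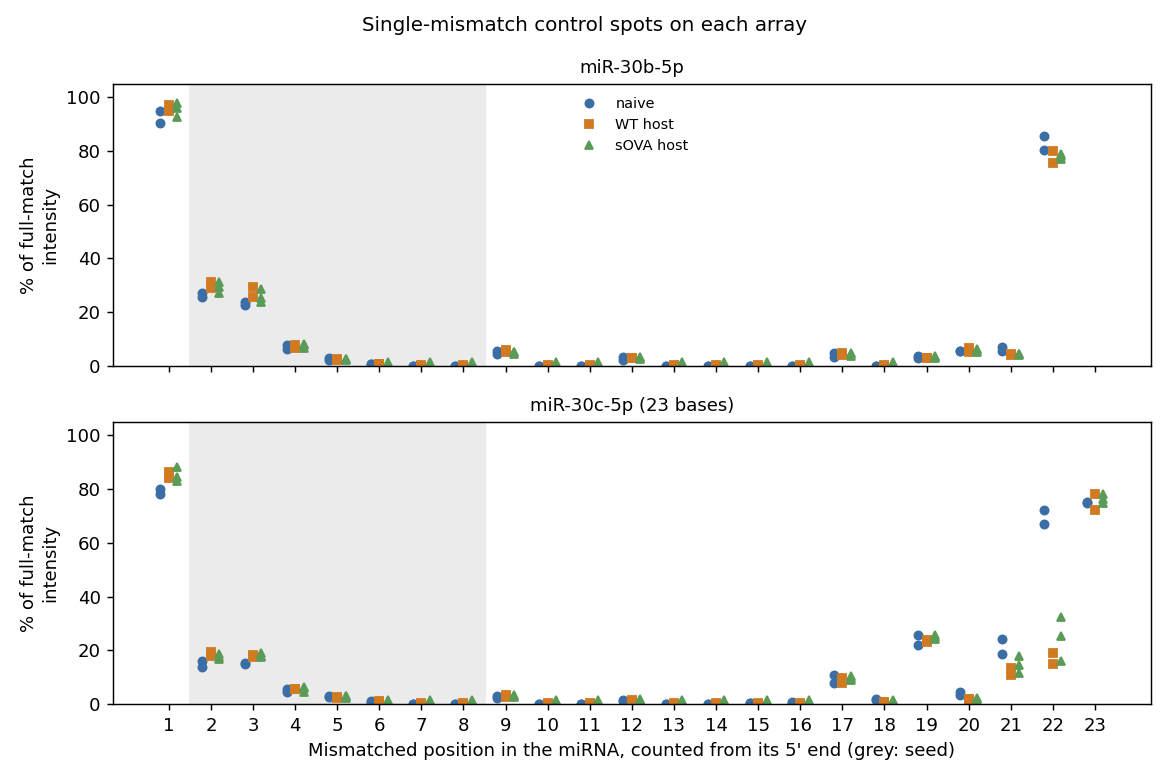
Intensity of single-mismatch control spots as percent of the full-match probe on the same array, by mismatched position from the 5′ end, for miR-30b-5p and the 23-base miR-30c-5p, 1 symbol per array and the seed in grey. Positions 7 and 8 lie near 0, both ends are high, and at position 22 of miR-30c-5p the naive arrays (72.2% and 67.0%) stand above the host arrays (15.1% to 32.5%).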

How the data were processed

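The 7 scanner files hold spot intensity, deposited on a linear scale as written by Agilent Feature Extraction (9.5.1.1 per the file headers, 10.6 per the submitters' processing notes), background-subtracted but not normalized between arrays. RNA (250 ng) was labelled with Cy3, per the labels' protocols. Targets were read as the reverse complement of each probe without its 10 terminal T and a leading G. Log2 intensities of a probe's spots were averaged without control and outlier-flagged spots, and each array was scaled by subtracting its 75th percentile among the 253 probes that all arrays detected. The 401 probes that all arrays of some group detected were tested with limma 3.58.1 (lmFit and eBayes, R 4.3.3) on all 7 arrays, with Benjamini-Hochberg adjustment over all 401 and a threshold of 0.05. The script was tested on simulated data with known changes.

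The members, the other families, the markers and the tests were chosen with earlier results of these data known. Described in full were the brightest probe of each of miR-30a to miR-30e and each member called. The likeness ranking used Pearson's r over arrays. Alternatives were other scalings, background corrections, filters, merged probes, slide row or replicate number as a block, and arrays left out. The deposited value table of log2 values was not used, because none of its 1776 rows matched a member by identifier.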

Additional observations from a re-analysis of the deposited data

Results flagged for a closer look

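The single-mismatch control spots are listed because they are control spots that gave signal and are not among the 401 probes tested. Of the 154 such spots of miR-30b-5p over the 7 arrays, 79 were well above background. Of the 161 such spots of the 23-base miR-30c-5p, 85 were well above background. Their percentages of the full-match intensity are given above.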

How the results depend on the processing

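The direction of the tested members against naive cells held under all 18 alternatives run (9 of 10 with no filter, where miR-384-5p was included). Members called lower in WT hosts were 2. They were 1 with no filter on dim probes, 1 with only probes detected on all arrays (where the 19-base miR-30e-5p target is not tested), and 1 with merged probes. Leaving out 1 array at a time gave 1 to 3. In sOVA hosts 3 were called, against 1 with no filter and 1 with only the 2 groups compared, and 1 to 3 when arrays were left out. With only the 2 groups compared, 3 members were called in WT hosts. Calls over all tested probes were then 70 lower and 92 higher in WT hosts, and 6 and 16 in sOVA hosts. With no filter, 1874 probes share the adjustment, and neither miR-30d-5p (adjusted p = 0.267 and 0.0767, limma) nor miR-30b-5p was called. Between the hosts the count was 0, and 0 to 1 when arrays were left out, the 1 being the 19-base miR-30e-5p target without sOVA host replicate 3 (1.15, adjusted p = 0.0373, below background in both groups). The labels do not say that a replicate number pairs arrays. Deviations from the group means of arrays with the same number correlated at r from -0.61 to 0.33. In groups of 2 arrays these deviations mirror each other, so the values cannot decide whether arrays were paired. With a replicate block 3 members were called in each comparison with naive cells. miR-30b-5p in sOVA hosts also missed the threshold under median scaling (-1.71, adjusted p = 0.0571) and quantile normalization (-1.60, adjusted p = 0.0558). Scaling to the 75th percentile over all probes moved the median of all probes by -0.51 in WT hosts and -0.82 in sOVA hosts and split the calls 24 lower to 25 higher and 49 to 29. The members called were then 2 and 4, with medians of -1.01 and -1.62. Where an array was left out of a pair, the lone array was assumed to vary like the other groups. The alternative with the deposited value table was not run, since no member matched it. The number of arrays and the 2 dim ones limit what can be resolved.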
